A study of Homo sapiens with 2 samples.

Results

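The mRNAs of 5 proteins of the large ribosomal subunit, RPLP0, RPL3, RPL4, RPL5 and RPL7A, were examined for A-to-G mismatches in HEK-293T, a cell line of human embryonic kidney origin. The genes were taken as hg19 intervals, each on the strand of the gene: RPLP0 at chr12:120634489-120638910 (minus), RPL3 at chr22:39708887-39715670 (minus), RPL4 at chr15:66790801-66797193 (minus), RPL5 at chr1:93297594-93307481 (plus) and RPL7A at chr9:136215069-136218281 (plus). The intervals held 1618 of 3518802 listed adenosine positions in the ABA library and 1653 of 4079392 in the library without ABA, or 1685 of 4736485 positions listed in either. RefSeq's GRCh38.p14 gene table places the 5 symbols on the same chromosomes. An hg19 annotation was not used here, so exons, introns and UTRs were not assigned, and stretches of neighbouring listed positions are called blocks.

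Large-subunit proteins surround the ribosomal RNA that forms peptide bonds, and their mRNAs are among the most abundant in growing cells. RPLP0 is the base of the stalk that recruits translation factors, RPL3 reaches towards the peptidyl transferase centre, RPL4 lines the tunnel through which the new chain leaves, RPL5 binds 5S ribosomal RNA, and RPL7A lies at the surface of the subunit. ADAR enzymes deaminate adenosine to inosine in double-stranded RNA, and sequencing reads inosine as G. They are known to edit more readily where the 5' neighbour of the adenosine is U or A than where it is G.

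A shared trait of ribosomal protein mRNAs is a run of pyrimidines at the very start, the 5' terminal oligopyrimidine tract, through which their translation is controlled. The annotated starts are shown with the longest run of C and T near each, which need not be the tract. RefSeq's promoter table (build GRCh38.p14, another build than the hg19 positions used elsewhere) held 4 of the 5 genes, RPL5 being the exception. The windows run 5' to 3' from 15 bases before the annotated start to 15 bases after it, with the longest run of C and T in capitals.
RPLP0, chr12:120201097-120201126, minus: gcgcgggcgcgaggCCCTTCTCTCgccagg
RPL3, chr22:39319609-39319638, minus: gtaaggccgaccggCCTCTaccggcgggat
RPL4, chr15:66504841-66504870, minus: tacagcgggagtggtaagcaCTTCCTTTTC
RPL7A, chr9:133348203-133348232, plus: ccacaaTTCCCTTTCCTTTCTCTCTCCTCC
Runs of C and T were 10 bases long in RPLP0 and RPL4, 5 in RPL3 and 24 in RPL7A, those of RPL4 and RPL7A being cut by the end of the window. The runs of RPLP0, RPL3 and RPL7A spanned the annotated start, whereas that of RPL4 lay wholly after it. Of 35116 promoter windows of this length, 6.48% held a run of at least 10 such bases, 49.6% of at least 5 and 0.114% of at least 24. The deposited positions began further in, 246 nt (RPLP0), 1097 nt (RPL3), 65 nt (RPL4), 75 nt (RPL5) and 720 nt (RPL7A) from the 5' end of the hg19 interval. A run of C and T holds no adenosine, so A-to-G mismatches could not be counted in the runs at any depth.

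Both groups carried a CIRTS-hADAR biosensor, an engineered RNA-targeting system joined to a human ADAR. The ABA cells received the small molecule ABA and the no ABA cells did not, with 1 library each, and no source used here gives dose or duration. Base reads over all listed positions came to 45275875 with ABA and 51089656 without ABA, at a median depth of 10 reads in both. The 5 genes were far deeper, with a median of 65 reads per position with ABA and 61 without ABA. Differences between conditions have no replicate check. Intervals are at 95%, cover counting error alone, and are too narrow to the extent that 1 read covers several positions. The p-values come from two-sided Fisher's exact tests that compare the libraries, not the conditions.

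With ABA, the 5 mRNAs carried more A-to-G mismatches, counted as G over A plus G base reads. Summed over the genes, 335 of 114838 base reads were G with ABA (0.292%, 0.261 to 0.325), against 176 of 112114 without ABA (0.157%, 0.135 to 0.182). The ratio was 1.86 (1.54 to 2.24), a difference of 0.135 percentage points (0.0959 to 0.174). The summed ratio lay between 1.75 (1.41 to 2.17, without RPL3) and 2.0 (1.62 to 2.47, without RPL5) when any single gene was left out. No position of the 5 genes reached the edited share of 35% that was used to set aside variant-like positions elsewhere.

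RPLP0 had the highest rate in both libraries. Of its base reads, 71 of 18640 were G with ABA (0.381%, 0.298 to 0.480), against 33 of 17216 without ABA (0.192%, 0.132 to 0.269). Its ratio was 1.99 (1.30 to 3.10). RPL3 followed with 95 of 28404 reads with ABA (0.334%, 0.271 to 0.409), against 42 of 27839 without ABA (0.151%, 0.109 to 0.204). At 2.22 (1.53 to 3.27) its ratio was the highest of the 5. RPL4 had 87 of 30600 reads with ABA (0.284%, 0.228 to 0.351), against 43 of 29232 without ABA (0.147%, 0.107 to 0.198), a ratio of 1.93 (1.33 to 2.85). The intervals of these 3 ratios lay above 1.

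RPL5 and RPL7A showed smaller differences, whose intervals held 1. RPL5 had 52 of 23322 reads with ABA (0.223%, 0.167 to 0.292), against 41 of 24823 without ABA (0.165%, 0.119 to 0.224), a ratio of 1.35 (0.879 to 2.08). RPL7A, the shallowest of the genes, had 30 of 13872 reads with ABA (0.216%, 0.146 to 0.309), against 17 of 13004 without ABA (0.131%, 0.0762 to 0.209), a ratio of 1.65 (0.884 to 3.20). Ordered by rate with ABA, each gene's interval overlapped that of its neighbour, as did the ratios. For all 10 gene pairs, the ratio of the 2 ratios had an interval that held 1, with the widest contrast between RPL3 and RPL5 (1.64, 0.95 to 2.84). The genes were therefore not separated by their response at this depth, which is not to say that they respond alike.

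**Figure D1:**
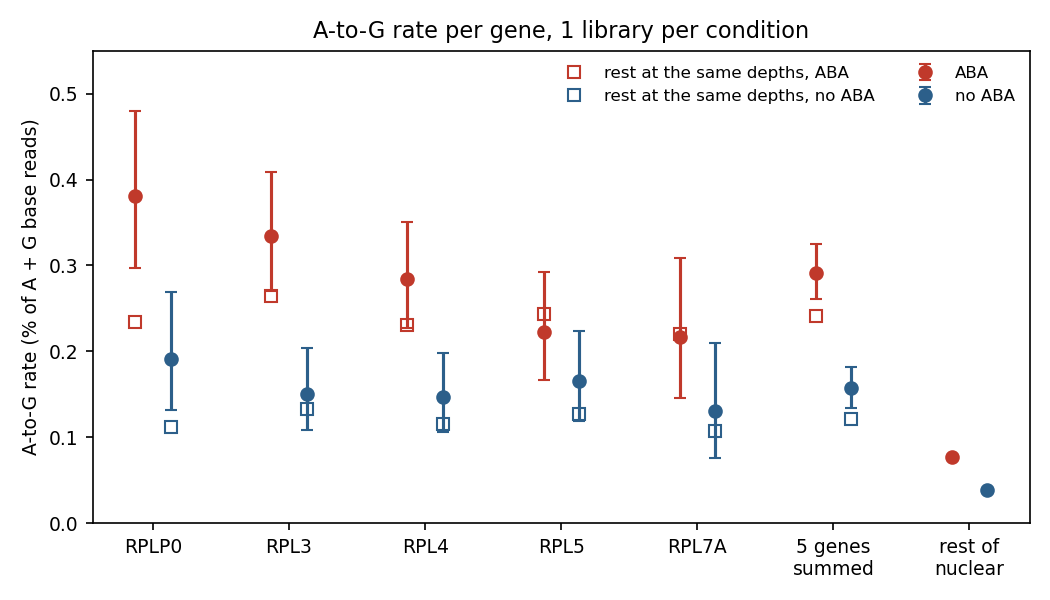
A-to-G rate in percent of A plus G base reads for each gene, their sum and the rest of the nuclear positions, with ABA in red left of no ABA in blue. Filled points carry 95% exact intervals from 1 library each, and open squares give other nuclear positions weighted to the depth bins of the gene. RPLP0 stands highest in both libraries, at 0.381% with ABA and 0.192% without ABA.

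The background for such counts was taken from other nuclear loci, formed by joining listed positions of 1 strand at most 5000 nt apart and keeping loci of at least 2000 base reads in each library. All 5 genes had their higher rate with ABA, against 71.5% of 5578 loci, and in 85.1% of the 679 loci that had at least 10000 base reads, a size nearer to that of the genes. A ratio of at least 2 was found in 1 of 5 genes, RPL3, against 47.7% of all loci and 45.5% of the deep ones. By direction and by fold the 5 genes thus stood close to other deep loci.

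Their level of mismatches stood apart from most loci in both libraries. Rates with ABA lay above those of 96.3% (RPL7A) to 99.2% (RPLP0) of the 5578 loci, and rates without ABA above 96.8% (RPL7A) to 98.8% (RPLP0). Over the rest of the nuclear positions, from chromosomes 1 to 22 and X with variant-like positions left out, the rate was 0.0771% (0.0763 to 0.0779) with ABA and 0.0384% (0.0378 to 0.0389) without ABA, a ratio of 2.01 (1.97 to 2.04). Depth moved with the rate over most of its range. In those other positions it was 0.0521% with ABA and 0.0251% without ABA at 6 to 9 reads, 0.331% with ABA and 0.161% without ABA from 100 up to 200 reads, and 0.261% with ABA and 0.156% without ABA at 200 reads or more, a depth that none of the 5 genes reached.

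With the rest weighted by depth bin, part of the gap in level remained for the sum of the genes, though not for most of them singly. The bins were wide, such as 20 to 49 reads, and depths within a bin can still differ. The part of such differences in the remaining gap was not tested. Weighted to the depth bins of the 5 genes, the rest had 0.241% (0.234 to 0.248) with ABA and 0.121% (0.116 to 0.126) without ABA. Summed, the genes stood 1.21 times (1.08 to 1.35) above it with ABA and 1.30 times (1.11 to 1.51) without ABA. RPLP0 stood highest, at 1.63 times (1.29 to 2.06) with ABA and 1.70 times (1.21 to 2.40) without ABA, and was the lone gene whose intervals lay above 1 in both libraries. At positions listed in both libraries, the 5 leading positions of each library held 34 of 71 RPLP0 G reads with ABA and 11 of 32 without ABA. In RPL3 the same number of positions held 20 of 95 with ABA. The standing of RPLP0 without its leading positions was not counted. RPL3 stood at 1.26 times (1.03 to 1.55) with ABA and 1.14 times (0.837 to 1.54) without ABA. For the other 3 genes both intervals held 1. RPL4 stood at 1.23 times (0.996 to 1.52) with ABA and 1.27 times (0.943 to 1.72) without ABA, RPL5 at 0.916 times (0.697 to 1.20) with ABA and 1.30 times (0.952 to 1.77) without ABA, and RPL7A at 0.980 times (0.684 to 1.40) with ABA and 1.22 times (0.759 to 1.97) without ABA. At 20 to 49 reads the 5 genes had 0.264% (0.184 to 0.368) with ABA and 0.110% (0.0615 to 0.181) without ABA, where the rest had 0.0915% with ABA and 0.0493% without ABA. From 100 up to 200 reads the genes had 0.312% (0.267 to 0.363) with ABA and 0.186% (0.15 to 0.229) without ABA, near the rest at that depth.

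The response itself was not separable from that of other transcripts. Set against the depth-weighted rest, whose ratio was 1.99, the summed ratio of the 5 genes was 0.932 times as large (0.771 to 1.13). RPL3 came to 1.11 times (0.769 to 1.60), RPL4 to 0.966 times (0.669 to 1.40) and RPLP0 to 0.955 times (0.630 to 1.45). RPL7A came to 0.801 times (0.441 to 1.46), and RPL5, the lowest, to 0.707 times (0.468 to 1.07). Each interval held 1.

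A-to-C mismatches did not share the difference, and A-to-T reads were too few to tell. A-to-C reads numbered 19 of 114522 with ABA (0.0166%, 0.00999 to 0.0259), against 40 of 111978 without ABA (0.0357%, 0.0255 to 0.0486), so that ABA over no ABA gave 0.464 (0.254 to 0.821). By gene this quotient ran from 0.0969 (0.00225 to 0.666) in RPL5 to 0.818 (0.198 to 3.22) in RPL3. In RPL5 alone did the interval leave out 1, with 1 read with ABA and 11 without ABA. The share of other loci with an A-to-C quotient below 1 was not counted. Without RPL5 the summed A-to-C ratio was 0.593 (0.310 to 1.10). In the rest of the nuclear positions the A-to-C ratio was 1.17 (1.12 to 1.22), and the ratio in the genes was 0.397 times as large (0.230 to 0.686). A-to-T reads numbered 17 with ABA and 14 without ABA, a ratio of 1.19 (0.551 to 2.60). That interval held both 1 and the summed A-to-G ratio of 1.86. Within the 5 genes, the A-to-G ratio was 4.0 times that of A-to-C (2.25 to 7.12).

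**Figure D2:**
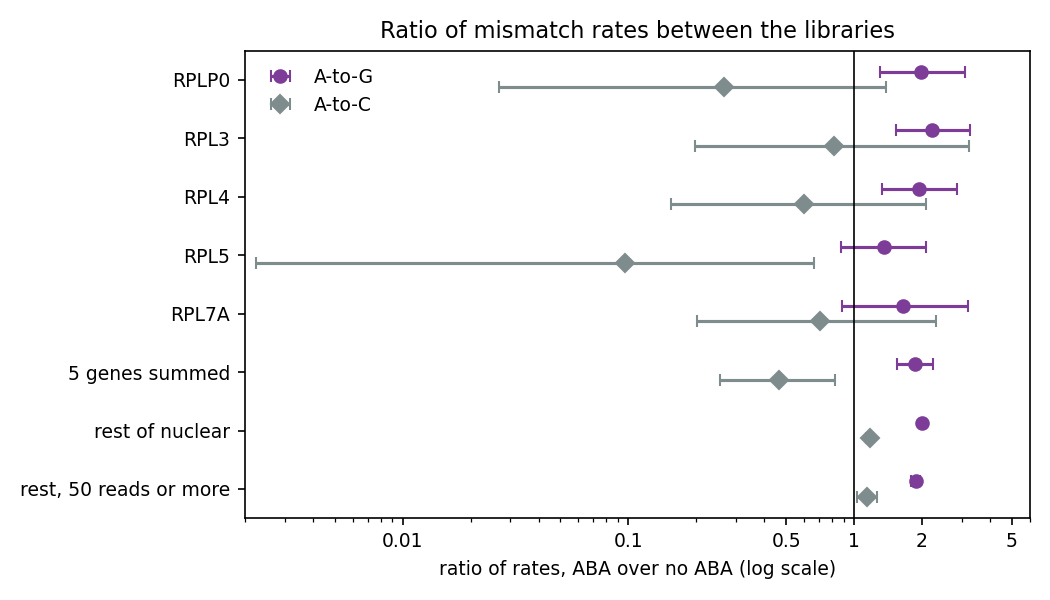
Ratio of mismatch rates, ABA over no ABA, on a log axis for A-to-G (circles) and A-to-C (diamonds), with 95% exact intervals. A-to-G ratios of the 5 genes run from 1.35 to 2.22 and A-to-C ratios from 0.0969 to 0.818, whereas the rest of the nuclear positions has 2.01 and 1.17.

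Read depth of the genes differed little between libraries. Scaled to 1000000 nuclear base reads, both counted over positions shared by the libraries, RPL4 had 760.6 with ABA and 706.4 without ABA, RPL3 had 708.7 with ABA and 677.2 without ABA, and RPL5 582.7 with ABA and 604.0 without ABA. RPLP0 had 465.5 with ABA and 414.2 without ABA, and RPL7A had 345.7 with ABA and 313.2 without ABA. Ratios of these levels ran from 0.965 (0.948 to 0.982) in RPL5 to 1.12 (1.10 to 1.15) in RPLP0, inside the range of 0.772 to 1.27 that held the middle 95% of loci. With all listed positions counted the RPL5 ratio was 1.06. RPL5 had the same 314 positions and the same base reads in both settings. Its direction thus depended on the nuclear total used for scaling. In bulk RNA, fewer cells of a type and less RNA per cell cannot be told apart.

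Per adenosine position and 1000000 nuclear base reads, RPL3 was the most abundant of the genes, at 2.05 (2.03 to 2.08) with ABA and 1.96 (1.94 to 1.99) without ABA. RPL5 had 1.86 (1.83 to 1.88) with ABA and 1.92 (1.90 to 1.95) without ABA, and RPL4 had 1.86 (1.83 to 1.88) with ABA and 1.72 (1.70 to 1.74) without ABA. RPLP0 had 1.81 (1.79 to 1.84) with ABA and 1.61 (1.59 to 1.64) without ABA. RPL7A was lowest, at 1.33 (1.31 to 1.35) with ABA and 1.20 (1.18 to 1.23) without ABA. Neighbours whose intervals overlapped were RPL5, RPL4 and RPLP0 with ABA, and RPL3 and RPL5 without ABA. Ribosomal protein genes have many processed pseudogenes, and no source used here says how reads that match several copies were treated, so these levels and rates are uncertain to that extent.

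The listed positions of each gene fell into blocks, runs of positions at most 100 nt apart, numbered here from the 5' end. There were 37 blocks with at least 200 base reads in each library: 7 in RPLP0, 9 in RPL3, 9 in RPL4, 6 in RPL5 and 6 in RPL7A. A higher rate with ABA was found in 28 and a lower one in 8, with 1 block of RPL7A free of G reads in both libraries. Over all nuclear blocks 27.9% had a higher rate and 13.5% a lower one, but most blocks were shallower than these. Among blocks of at least 1000 reads in each library, 27 of 34 in the genes had a higher rate, against 55.9% of 8353. No block of the 5 genes passed Benjamini-Hochberg adjustment over all 45236 nuclear blocks (0 higher and 0 lower, adjusted p = 1 for each from Fisher's exact test), where 0.0133% of nuclear blocks passed as higher and 0% as lower. At an unadjusted exact p under 0.05 there were 6 higher and 0 lower blocks, against 0.639% and 0.0243% of nuclear blocks. All 6 were among the 34 deep ones, for which the background was 3.18%. More G reads make both a higher rate with ABA and a low p easier to reach. The genes had more G reads per base read than most loci, in both libraries. No background of equal depth and rate was counted, so these block shares are not a like comparison.

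In RPLP0 the fifth block, chr12:120636358-120636542, had the lowest p of the gene. Its G reads numbered 28 of 3754 with ABA (0.746%, 0.496 to 1.08), against 8 of 3630 without ABA (0.220%, 0.0952 to 0.434), a ratio of 3.38 (1.5 to 8.59; unadjusted exact p = 0.0012). These 28 reads lay at 11 positions, with 9 at chr12:120636412 and 8 at chr12:120636436. The 8 without ABA lay at 4 positions, with 4 and 2 at those same positions. Next to it, the fourth block had 13 of 2982 with ABA and 4 of 2449 without ABA, whereas the sixth ran the other way, with 4 of 2001 with ABA and 5 of 1674 without ABA.

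RPL3 had 3 blocks with an unadjusted p under 0.05, the most of any gene. The lowest was the fifth, chr22:39710692-39710846, with 15 of 4229 with ABA (0.355%, 0.199 to 0.584) and 2 of 3786 without ABA (0.0528%, 0.0064 to 0.191; unadjusted exact p = 0.0029). The first block, chr22:39714405-39714573, had 15 of 2469 with ABA (0.608%) and 4 of 2673 without ABA (0.15%), and the sixth had 17 of 3722 with ABA and 7 of 3968 without ABA. In the ninth block, at the 3' end, the libraries were alike in rate, at 0.434% with ABA and 0.464% without ABA, with wide intervals.

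RPL4 had its lowest p in the fourth block, chr15:66794127-66794247. There 9 of 2597 reads were G with ABA (0.347%, 0.159 to 0.657), each at a different position, against 0 of 2136 without ABA, with an exact upper limit of 0.173%. The exact interval of the ratio began at 1.62 and had no upper end (unadjusted exact p = 0.0052). The ninth block, chr15:66791360-66791989, is the longest of the gene with 161 positions. It had 28 of 10000 reads with ABA (0.280%) and 14 of 9589 without ABA (0.146%; unadjusted exact p = 0.045), and the interval of its ratio held 1 (1.92, 0.976 to 3.94).

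RPL5 and RPL7A had no block with an unadjusted p under 0.05. In RPL5, 3 of 6 blocks were higher with ABA and 3 lower, of which the third and the sixth had equal numbers of G reads in both libraries. The block of lowest p, the fourth at chr1:93303014-93303188, had 15 of 5448 with ABA and 8 of 5350 without ABA (unadjusted exact p = 0.21). In RPL7A the fifth block, chr9:136217859-136217925, had 9 of 2470 with ABA and 3 of 2126 without ABA (unadjusted exact p = 0.16).

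**Figure D3:**
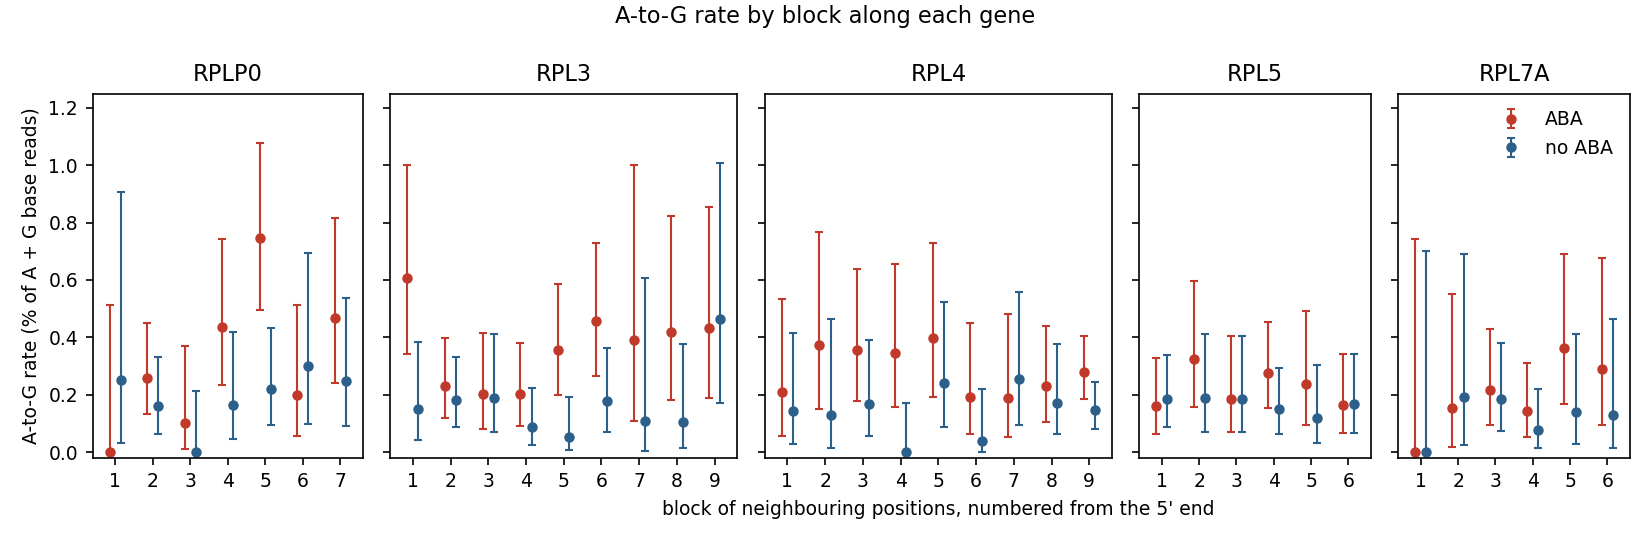
A-to-G rate in percent of A plus G base reads for each block of each gene, numbered from the 5' end, with ABA in red left of no ABA in blue and 95% exact intervals. The fifth block of RPLP0 stands highest with ABA at 0.746%, and the blocks of RPL5 overlap throughout.

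Along the length of the mRNAs there was no steady trend. With the positions of each gene split into 5 equal groups in transcript order and summed over the genes, the rate with ABA was 0.244%, 0.329%, 0.278%, 0.309% and 0.293% from the 5' to the 3' end. Without ABA the rates were 0.171%, 0.15%, 0.142%, 0.139% and 0.201% in that order. Ratios were 1.42 (0.918 to 2.23), 2.20 (1.45 to 3.41), 1.96 (1.30 to 3.0), 2.22 (1.48 to 3.37) and 1.45 (0.913 to 2.35). The middle 3 groups had intervals above 1 and the outer ones held 1, but all 5 intervals overlapped.

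G reads were spread over many adenosines. Of the 1586 positions listed in both libraries, 236 had a G read with ABA (14.9%) and 162 without ABA (10.2%). Positions with a single G read held 56.1% of G reads with ABA and 87.4% without ABA. At least 3 G reads were found at 18 positions with ABA and at 1 without ABA, a position of RPLP0. The 18 lay in RPL4 (6), RPLP0 (5), RPL3 (5) and RPL5 (2), with 0 in RPL7A. In RPLP0, 34 of 71 G reads with ABA came from its 5 leading positions. Among 27810 other nuclear positions with 50 reads or more in each library, a depth not all 1586 positions of the genes reached, 12.6% had a G read with ABA and 8.50% without ABA, 319 had at least 3 G reads with ABA and 70 without ABA, and single-G positions held 51.4% of G reads with ABA and 74.5% without ABA.

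Positions recurred between the libraries. A G read in both was seen at 41 positions, 17.4% of those with ABA and 25.3% of those without ABA. The shares were close to those of other nuclear positions with 50 reads or more in each library, where 646 recurred, 18.5% of those with ABA and 27.3% of those without ABA. At positions that had a G read without ABA, the rate with ABA was 0.556% (0.448 to 0.681), against 0.248% (0.218 to 0.281) at the other positions. Among those other nuclear positions, these rates with ABA were 0.721% (0.688 to 0.756) and 0.179% (0.173 to 0.185). RPLP0 showed the widest contrast of the genes, with 1.43% (0.982 to 2.02) and 0.238% (0.169 to 0.325). In RPL5 the intervals overlapped, at 0.265% (0.132 to 0.473) and 0.214% (0.154 to 0.290). For A-to-C, 1 position of the 5 genes recurred, 5.56% of the 18 with ABA and 2.63% of the 38 without ABA. Among those other nuclear positions 34 recurred, 6.84% of those with ABA and 7.78% of those without ABA. With 1 recurring position the genes cannot be told apart from the rest in this.

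No single adenosine of the 5 genes passed the test between libraries. The call asked for 20 reads in each library, a shift of 10 percentage points or more and p under 0.05 in Fisher's exact test after Benjamini-Hochberg correction over 359185 nuclear positions. It was met by 0 of 1410 positions in either direction, and by 0% of nuclear positions. The edited share was higher with ABA at 219 positions and lower at 132, against a background of 3.3% higher and 1.87% lower over all nuclear positions, which were shallower. Before adjustment, 4 positions had an exact p under 0.05, 1 each in RPL3, RPL4, RPL5 and RPLP0, and all were higher with ABA. That is 0.284% of the genes' positions as higher, where nuclear positions reached 0.0175% as higher and 0.000557% as lower. A low p is harder to reach at the lower depth of most nuclear positions, and no background of equal depth was counted. The shares are therefore not a like comparison.

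The position of largest change was chr15:66795785 in the first block of RPL4, the lone position of the 5 genes that met the definition of an edited site (at least 20 reads, 3 G reads and a share of 10%). That is 6.96 per 10000 of the 1436 positions with such depth with ABA, near the 5.15 per 10000 of nuclear positions (247 of 479482). Without ABA it was 0 of 1451 positions, against 140 of 508002 nuclear positions (2.76 per 10000). The RPL4 position had 4 of 30 reads with ABA (13.3%, 3.76 to 30.7) and 0 of 40 without ABA, with an exact upper limit of 8.81% (unadjusted exact p = 0.030, adjusted p = 1). A change of at least 10 points by size alone was thus met by 1 higher and 0 lower positions, against 0.0234% and 0.00167% of nuclear positions. Next was chr12:120634733 in the last block of RPLP0, with 6 of 84 reads with ABA (7.14%, 2.67 to 14.9) and 0 of 82 without ABA (unadjusted exact p = 0.029). RPL4 at chr15:66793719 had 3 of 44 with ABA (6.82%) and 0 of 41 without ABA. RPL3 at chr22:39714455 had 6 of 102 with ABA (5.88%, 2.19 to 12.4) and 0 of 94 without ABA (unadjusted exact p = 0.030). These 4 positions were those with a rise of at least 5 points, which 0.23% of nuclear positions had, and 0 of the genes' positions fell by as much, against 0.0585%.

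Smaller rises included RPLP0 at chr12:120636721, with 8 of 130 reads with ABA (6.15%) and 1 of 85 without ABA (1.18%), and RPL4 at chr15:66791819, with 6 of 105 with ABA (5.71%) and 1 of 102 without ABA (0.980%). RPL3 at chr22:39709296 had 3 of 51 with ABA and 1 of 53 without ABA, and at chr22:39710143 it had 3 of 77 with ABA and 0 of 77 without ABA. In RPL7A (chr9:136216552, 1 of 22 with ABA and 0 of 20 without ABA) and RPL5 (chr1:93301814, 1 of 25 with ABA and 0 of 27 without ABA) the largest rises by size rested on a single G read. The lowest p of the 5 genes, a position named after its value was seen, was in RPL5 at chr1:93300392, with 5 of 144 reads with ABA (3.47%, 1.14 to 7.92) and 0 of 161 without ABA (unadjusted exact p = 0.023, adjusted p = 1). The most G reads, in each library and in both together, were in the fifth RPLP0 block at chr12:120636412, also named after its values were seen, with 9 of 116 with ABA (7.76%) and 4 of 100 without ABA (4%).

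The largest falls were smaller and rested on 1 or 2 G reads without ABA. They lay in RPL3 at chr22:39708940, with 0 of 46 reads with ABA and 1 of 23 without ABA, and in RPLP0 at chr12:120635209, with 0 of 67 with ABA and 2 of 55 without ABA. The other 3 were RPLP0 at chr12:120638573, with 0 of 28 with ABA and 1 of 24 without ABA, and RPL7A at chr9:136216522 (0 of 30 with ABA and 1 of 24 without ABA) and chr9:136216418 (0 of 48 with ABA and 1 of 29 without ABA). Their unadjusted exact p-values ran from 0.201 to 0.462.

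**Figure D4:**
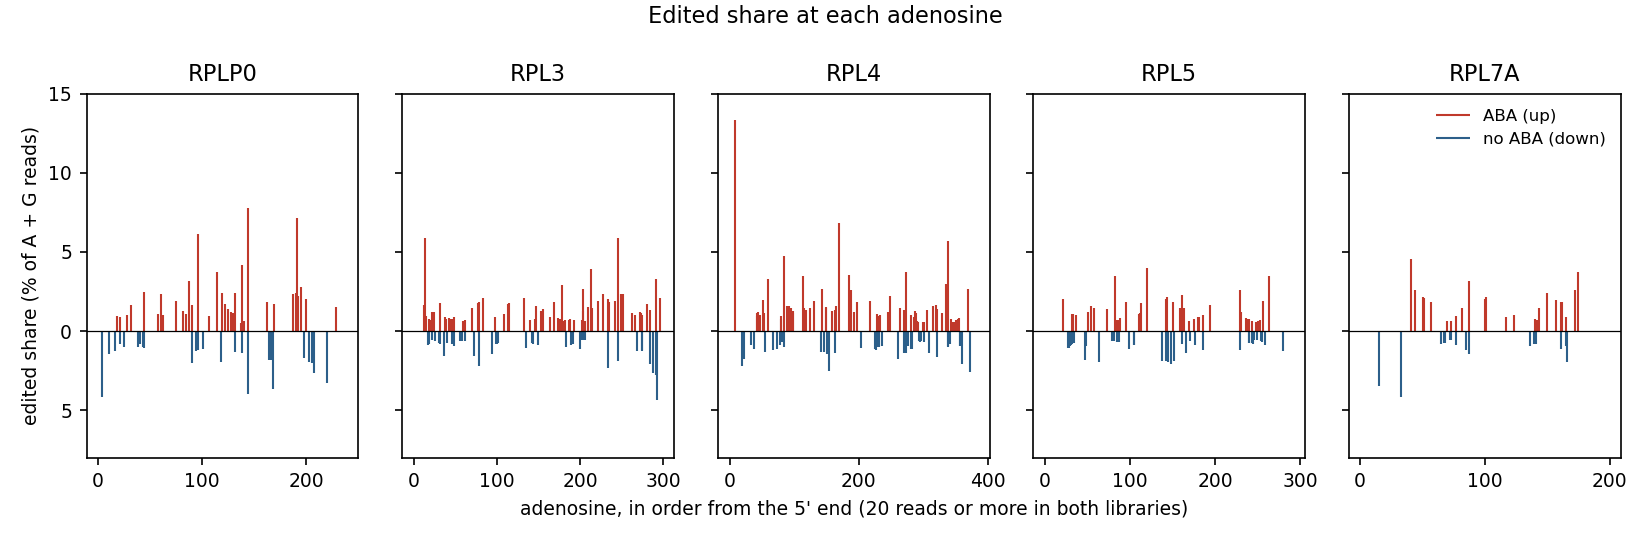
Edited share, G in percent of A plus G reads, at each adenosine with at least 20 reads in both libraries, in order from the 5' end, with ABA drawn upwards in red and no ABA downwards in blue. The tallest line with ABA is the RPL4 position at 13.3%, and no line without ABA passes 4.35%.

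Adenosines with another A directly on their 5' side, and none on their 3' side, had the highest rate with ABA. Of the 1410 tested positions, 326 had a listed A on the 5' side only, and 113 of 25701 reads there were G with ABA (0.440%, 0.362 to 0.528), against 44 of 24913 without ABA (0.177%, 0.128 to 0.237), a ratio of 2.49 (1.74 to 3.61). The 331 positions with A on the 3' side only had 43 of 26180 with ABA (0.164%, 0.119 to 0.221) and 35 of 25469 without ABA (0.137%, 0.0957 to 0.191), a ratio of 1.20 (0.747 to 1.92). The first ratio was 2.08 times the second (1.18 to 3.67).

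The 624 positions with no A on either side lay between, with 0.305% (0.258 to 0.357) with ABA and 0.162% (0.128 to 0.202) without ABA, a ratio of 1.88 (1.42 to 2.5). Inside longer runs, with A on both sides, 129 positions had 0.210% (0.13 to 0.321) with ABA and 0.153% (0.0855 to 0.252) without ABA, a ratio of 1.38 (0.676 to 2.87). The ratios ran in the same order in the 357705 other nuclear positions of that depth, at 2.30 (2.17 to 2.43) with A on the 5' side, 1.94 (1.87 to 2.02) with no A beside, 1.41 (1.28 to 1.56) with A on both sides and 1.29 (1.20 to 1.38) with A on the 3' side. In each of the 4 classes, the ratio of the genes over that of the rest had an interval that held 1. A-to-C rates of the rest also differed by neighbour, at 0.0256% with ABA with A on the 5' side only and 0.00894% on the 3' side only. Their ratios, ABA over no ABA, were 1.14 (1.02 to 1.29) and 1.02 (0.841 to 1.23). In the genes these A-to-C rates with ABA were 0.0156% and 0.00765%, from 4 and 2 reads. The cause of the rate pattern was not tested. The U, C and G neighbours of these adenosines were not read, since the files list A positions.

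**Figure D5:**
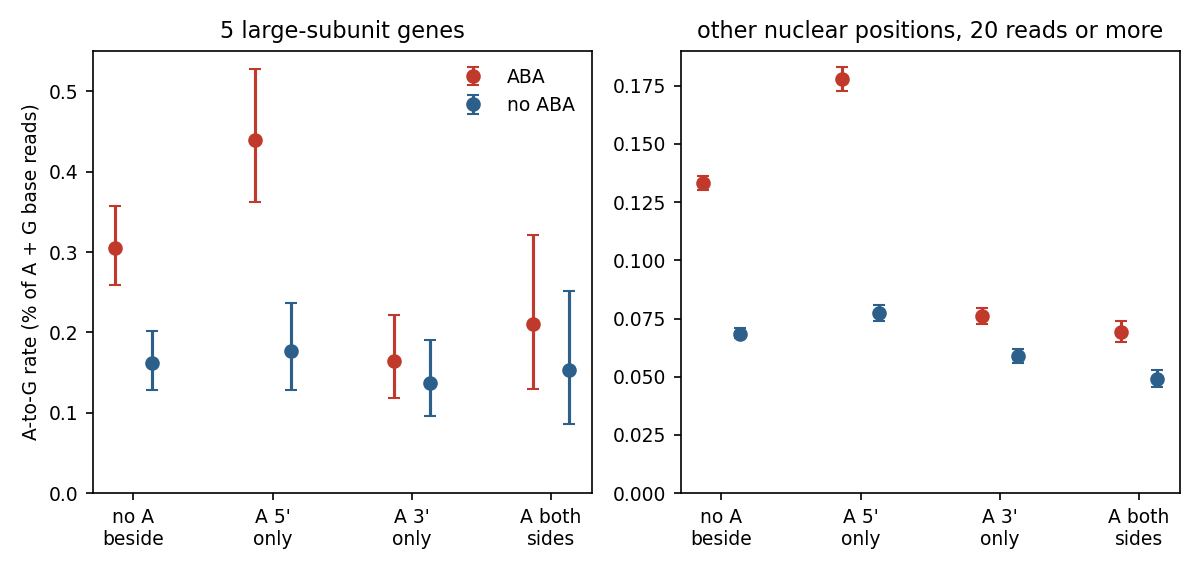
A-to-G rate in percent of A plus G base reads by the presence of a listed A directly 5' or 3' of the adenosine, for the 5 genes (left) and other nuclear positions (right, on a smaller scale), with ABA in red left of no ABA in blue and 95% exact intervals, over positions of at least 20 reads in each library. With A on the 5' side alone the 5 genes reach 0.440% with ABA, against 0.164% with A on the 3' side alone.

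The opposite strand of the same intervals served as a check of strandedness. It held 2.29% (2.21 to 2.38) of the base reads of both strands with ABA, 2695 reads at 303 positions, and 4.38% (4.26 to 4.49) without ABA, 5133 reads at 518 positions. By gene the share ran from 1.65% (RPL5) to 3.02% (RPL7A) with ABA and from 2.79% (RPLP0) to 5.79% (RPL3) without ABA. Median depth there was 7 reads with ABA and 9 without ABA. Since positions of 5 reads or fewer are not listed, these shares depend on that cutoff. The opposite strand of other loci was not compared here, so these values say nothing particular to the 5 genes. A-to-G reads on the opposite strand numbered 0 of 2694 with ABA and 0 of 5132 without ABA, with exact upper limits of 0.137% with ABA and 0.0719% without ABA. The part of strand carry-over in the A-to-G rates was not tested.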

How the data were processed

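The authors deposited raw counts of each base per listed position, 1 file per strand and library. Per the file headers, positions had to pass a cutoff of 5 base reads. The submitters' processing notes name cutadapt, HISAT2 and hg19, with no versions, and no source used here names the program that counted bases. Minus-strand T to C counts were read as A-to-G. Rates are summed over all listed positions, without positions whose edited share reached 35% in either library. Intervals of rates are Clopper-Pearson and those of ratios exact conditional binomial, while those of ratios of ratios, of depth-weighted values and of percentage-point differences are normal approximations. Site and block tests ran over all nuclear positions with Benjamini-Hochberg adjustment and were tested on simulated data. The simulated rises were larger than the summed difference of these genes, so power at that size was not measured. The genes, lists and tests were chosen with earlier results of these data known. Positions named were up to 10 largest rises and 5 largest falls, at most 3 per gene, every edited site, and each gene's block of lowest p. Other large-subunit genes and cell type markers were not analysed here, as no hg19 annotation was used. Alternatives changed coverage, positions, depth (thinned), genes, block and locus gaps. Scripts ran scipy 1.17.1, matplotlib 3.10.9, pandas 2.3.3 and numpy 2.4.6 under Python 3.11.15.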

Additional observations from a re-analysis of the deposited data

How the results depend on the processing

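Of the 6 alternatives run for each gene, keeping variant-like positions could change nothing, as the genes held 0. Under the other 5, A-to-G ratios kept their direction and stayed inside their own intervals, from 1.84 to 2.25 in RPLP0, 2.08 to 2.22 in RPL3, 1.62 to 1.93 in RPL4, 1.22 to 1.41 in RPL5 and 1.36 to 1.74 in RPL7A. The number of edited sites with ABA, 1 as defined, was 8 at a share of at least 5% and 0 at a coverage minimum of 50, with 0 without ABA in both settings. At 5% with ABA the genes had 55.7 per 10000 of 1436 positions, against 9.53 per 10000 of nuclear positions (457 of 479482). They were thus not near the nuclear value, as they were at 10%. The genes were deeper than most nuclear positions, so this is not a like comparison. Without ABA, nuclear positions had 164 of 508002 at 5%. At a coverage of 50 they had 47 of 39594 with ABA and 17 of 36182 without ABA. Changes by size alone, with no test, gave 1 higher position at 10 points (a setting added after the data were seen) and 4 at 5 points. Loci joined at 1000 nt gave 68.4% higher and 45.7% with a ratio of at least 2, and loci of at least 10000 reads, added after the data were seen, gave 85.1% and 45.5%. Over all listed positions level ratios were 1.22 in RPLP0, 1.15 in RPL3, 1.18 in RPL4, 1.21 in RPL7A and 1.06 in RPL5, where the direction reversed. For RPL5 the positions and base reads were the same in both settings, so the reversal came from the nuclear total used for scaling. For the other genes the listed positions changed as well, and the 2 parts were not separated. No paired analysis was possible because each condition had 1 library. Depth limits single positions: at the leading RPL4 position, 0 of 40 reads without ABA has an exact upper limit of 8.81%.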
